A study of Mus musculus with 36 samples.

Results

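The subcutaneous fat of the groin, inguinal white adipose tissue (iWAT), was compared between calorie-restricted (CR) mice and mice on a time-restricted diet without calorie restriction (TR, labelled TR.al). The comparison rests on 12 of the series' 36 bulk RNA-seq libraries, 6 of CR iWAT and 6 of TR iWAT, chosen by the diet and tissue labels alone. All mice were C57BL/6J and had been on their diet for 16 weeks, and 6 iWAT libraries of mice fed ad libitum (AL) give the baseline used where a CR or TR value is set against unrestricted feeding. Setting CR against TR addresses whether fasting alone, with the calories kept, gives the same transcriptional response as eating less. The labels give neither sex nor age nor the hour of sampling, so the hours since feeding and the diets cannot be told apart. The data are the authors' comparisons of groups, 14699 genes and 31936 transcripts, each with a log2 fold change (CR minus TR), a log2 mean level (CPM, read counts scaled to a common library total), and a p-value with its FDR. Values per library, and so the depth and the spread of each group, were not analysed here, and how many mice share a direction is unknown. Below, an SE is an approximate standard error, the size of the log2 fold change divided by the square root of the deposited likelihood-ratio statistic, and a change is called where the deposited FDR is under 0.05.

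White adipocytes store triglyceride, make part of it from glucose by de novo lipogenesis, release it by lipolysis and secrete hormones such as leptin and adiponectin. In the inguinal depot of mice some adipocytes can turn beige, with many mitochondria and the uncoupling protein UCP1. Calorie restriction, as usually given to mice in a daily meal, and timed feeding both impose a daily fast, and refeeding after a fast is a known driver of lipogenic genes in fat.

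The tables carried the transcripts of fat cells and, beside them, of 2 other tissues. All 22 measured genes of 23 in an adipocyte identity list had a log2 mean CPM between 2.92 and 13.68, with a median of 10.18. Adiponectin (Adipoq, ENSMUSG00000022878) had a mean of 2532 CPM per the authors' deposited table. Albumin (Alb, ENSMUSG00000029368), the main plasma protein made by hepatocytes, had a mean of 2360 CPM in the same tissue per the authors' deposited table, close to that of adiponectin. Acta1, the actin of skeletal muscle fibres, had a mean of 446 CPM per the authors' deposited table. In bulk tissue, fewer cells of a type and less RNA per cell cannot be told apart. How hepatocyte and muscle transcripts came to be in these libraries was not tested, nor whether few or many libraries carry them.

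Between CR and TR, 135 of 14699 genes were called, which is 0.918% of those tested: 9 were higher in CR (0.0612%) and 126 were lower in CR (0.857%). Liver-enriched genes were those whose log2 mean CPM reached 5 or more in the liver table of the same diets and at least 4 log2 units less in iWAT. The 125 called genes that met this rule were all lower in CR, and 5 of the 9 genes higher in CR were members of a list of skeletal muscle genes. The other 5 called genes were Gm45837, Fabp3, Cavin4, Nexn and Mmd2. No gene of the lists of fatty acid synthesis, lipolysis, mitochondrial respiration, adipokines, clock or extracellular matrix was called once the liver-enriched and muscle genes were set apart. With those 2 classes left out and the p-values adjusted again over the rest, 1 gene stayed under the threshold, Gm45837. The plot of p-values against fold changes shows the 2 classes on its 2 flanks.

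**Figure D1:**
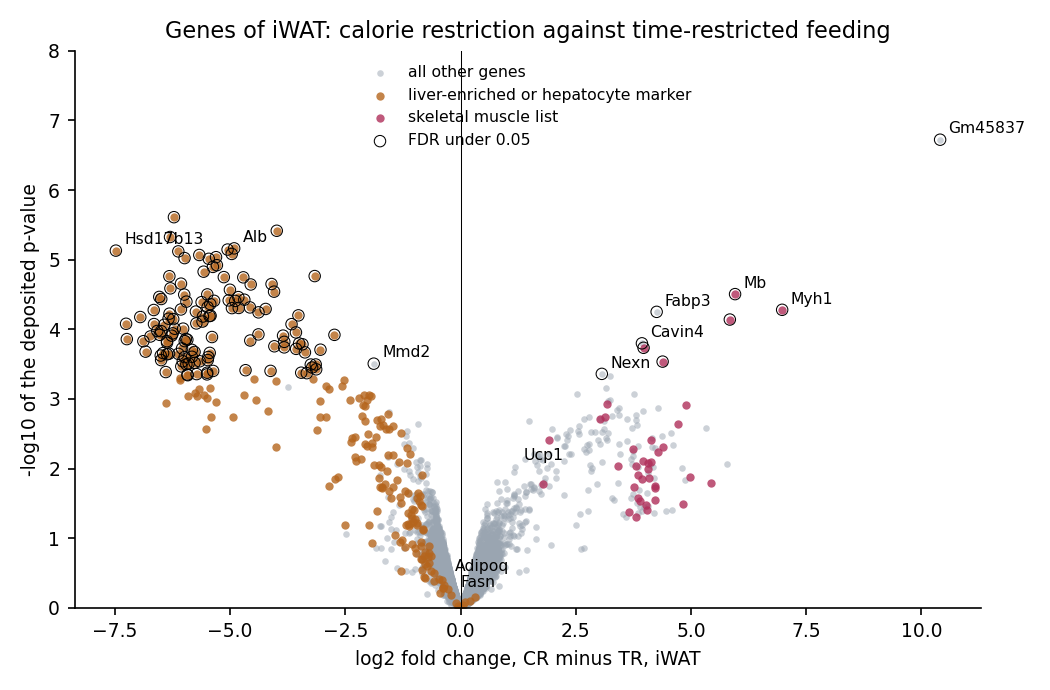
Each point is 1 of 14699 genes, with the deposited log2 fold change (CR minus TR in iWAT) on the x axis and the −log10 of the deposited p-value on the y axis. Liver-enriched genes and hepatocyte markers (brown) fill the left flank, skeletal muscle genes (red) the right, and circles mark the 135 genes with an FDR under 0.05.

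Genes of hepatocytes formed most of the difference between the diets. Of 30 hepatocyte markers 29 were measured and 27 were called, all lower in CR, with a median log2 fold change of -5.997. Beside this stands a share of 0.857% called lower over all genes. Levels implied by the mean and the fold change were, summed over the 29 markers, about 1897 CPM in CR iWAT and 11371 CPM in TR iWAT. Such implied levels are above 0 by their calculation. One uncalled marker that fat also expresses, Cyp2e1, made up about 1677 CPM of the sum in CR and 3006 CPM of that in TR. Without it the sums over the other 28 markers were about 219.8 CPM in CR and 8364 CPM in TR, a split made after its values were seen. For albumin (chromosome 5 from 90460897 to 90476602, GRCm38) the implied levels were about 152 CPM in CR and 4569 CPM in TR. The authors' deposited table gave albumin a log2 fold change of -4.91 (SE 1.09, adjusted p = 0.011).

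The promoter windows of albumin and of the fibrinogen alpha chain gene Fga are shown because these genes moved together with the other hepatocyte genes. Capitals mark the letters GTTAAT or their reverse complement, part of the motif of the hepatocyte nuclear factor HNF1, searched on both strands. The windows run from 250 bases before to 50 bases after the RefSeq start (GRCm38.p6), at chr5:90460620-90460919 on the plus strand for Alb and chr3:83025903-83026202 on the plus strand for Fga.
Alb: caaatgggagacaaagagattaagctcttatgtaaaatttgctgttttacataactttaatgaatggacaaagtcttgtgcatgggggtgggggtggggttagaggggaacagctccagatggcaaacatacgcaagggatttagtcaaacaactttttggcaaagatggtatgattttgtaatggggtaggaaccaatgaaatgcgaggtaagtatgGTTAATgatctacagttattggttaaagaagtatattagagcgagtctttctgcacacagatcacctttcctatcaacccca
Fga: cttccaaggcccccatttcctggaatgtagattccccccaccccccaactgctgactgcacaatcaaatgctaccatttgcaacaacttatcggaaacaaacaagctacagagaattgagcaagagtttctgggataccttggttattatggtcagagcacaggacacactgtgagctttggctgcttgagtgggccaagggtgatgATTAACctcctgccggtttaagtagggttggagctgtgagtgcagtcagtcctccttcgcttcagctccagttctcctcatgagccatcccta
The match began 32 bases before the start in Alb and 43 bases before it in Fga. The called liver-enriched genes had 113 windows, from 97 of the 125 genes, and 23 windows held the letters (20.4%). Of all 32851 windows 2332 did (7.1%). A gene can have several windows or none, so these are shares of windows and not of genes. A match of these letters is a description of the window and not evidence of binding.

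Secreted plasma proteins were among the lowest of the called genes. Fga, which makes a chain of the clotting protein fibrinogen, had a log2 fold change of -6.95 (SE 1.74, adjusted p = 0.018) per the authors' deposited table. Mug2, a murinoglobulin protease inhibitor, and Mbl2, a mannose-binding lectin, had -7.24 and -6.73 per the authors' deposited table. The serpins Serpina3k, Serpina1b, Serpinc1 and Serpina3m had -6.13, -4.97, -3.22 and -2.74 per the authors' deposited table, Serpinc1 being antithrombin. Serpina and Mup genes belong to families of near-identical copies, so their reads could be split among copies and their single values are uncertain. Among apolipoproteins, Apob had -6.32, Apoa1 had -5.74 and Apoc3 had -3.99 per the authors' deposited table. The approximate SE of the called liver-enriched genes had a median of 1.42, against 0.32 over all genes, and whether these genes differ from each other in size was not tested.

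Enzymes of the hepatocyte were lower in CR than in TR as well. Cps1 and Ass1, which act in the urea cycle, had log2 fold changes of -6.84 and -3.14 per the authors' deposited table. Uox, which breaks down uric acid, had -7.26, and Uroc1, which degrades histidine, had -6.88 per the authors' deposited table. Hsd17b13, a lipid droplet enzyme of hepatocytes, had -7.48 (SE 1.67, adjusted p = 0.011), the lowest of all genes per the authors' deposited table. Cyp8b1 and Abcc2, which act in bile acid synthesis and biliary export, had -3.25 and -3.34 per the authors' deposited table, and the P450 gene Cyp2a12 had -6.66. Hnf4a, a transcription factor of hepatocytes, had -5.99 per the authors' deposited table. The 2 measured markers that were not called were Mup20, with -5.43 (adjusted p = 0.071), and Cyp2e1, with -0.84 (adjusted p = 0.54), per the authors' deposited table. Cyp2e1 is also expressed in fat: its level in iWAT lay 1.94 log2 units under that in liver, and its mean was 2342 CPM. Apoa1, Apob, Hnf4a, Mup20 and Cyp2e1 were named after their values were seen.

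The level of the called liver-enriched genes in iWAT ran parallel to their level in liver. The rule itself sets a gap of 4 or more, and taking only called genes also bears on the range of gaps. Over the 125 called liver-enriched genes the log2 mean CPM in liver ran between 7.42 and 16.72, and the gap between liver and iWAT had a median of 5.77 log2 units, with 5.28 and 6.27 at the 5th and 95th percentiles. A gap of that median corresponds to a level 54.7 times lower in iWAT. In the livers of the same diets these genes had a median log2 fold change of 0.03 between CR and TR, and 0 of them were called there by the authors' edgeR model, with 9 at an unadjusted p under 0.05. The 153 liver-enriched genes that were not called had a median gap of 4.87 and a median log2 fold change of -1.52, and 97 of them had an unadjusted p under 0.05, all lower in CR. Among the genes nearest to the limit of 4 were Col27a1 and Hook1 just inside, with gaps of 4.01 and 4.02 and log2 fold changes of 0.04 and -0.01, and Nipsnap1, Slc25a15 and Tmem86b just outside, with gaps of 3.999, 3.98 and 3.94 and log2 fold changes of -0.91, -0.76 and -0.78. A gene of such a middle gap thus carried a small difference or none that could be told from 0.

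**Figure D2:**
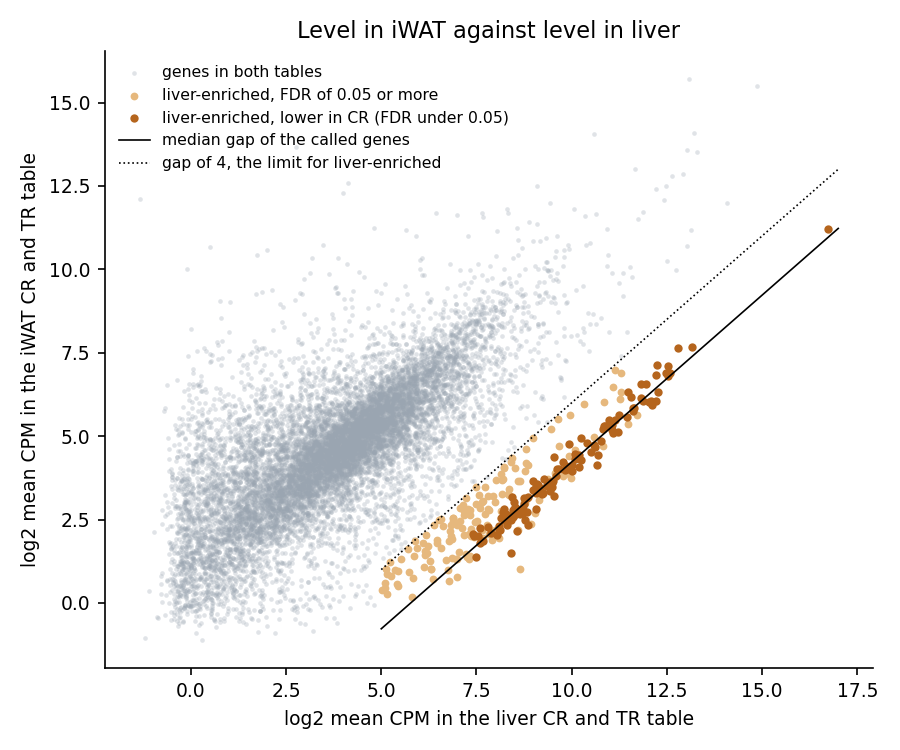
The level of each gene (log2 mean CPM) in the iWAT table of CR and TR is plotted against its level in the liver table of the same diets. The 125 liver-enriched genes lower in CR (dark brown) lie along the solid line, which is their median gap of 5.77, and the dotted line is the limit of 4 that defines liver-enriched.

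Against ad libitum iWAT many of the 125 called liver-enriched genes fell in CR, and none was called in TR. The median over the 125 called genes was -3.62 for CR minus AL and 2.09 for TR minus AL. In CR minus AL 78 of the 121 listed genes were called lower, where 3.78% of all genes were called lower, and in TR minus AL 0 of 125 were called in either direction by edgeR, with 10 higher at an unadjusted p under 0.05. The 2 comparisons share the AL libraries and are given side by side only. The 125 genes were chosen as lower in CR than in TR from the same CR and TR libraries. That choice favours a negative CR minus AL and a positive TR minus AL. Over all 279 liver-enriched genes and hepatocyte markers, called or not, the medians were -1.85 for CR minus AL and 1.62 for TR minus AL. Albumin had -1.96 (adjusted p = 0.12) for CR minus AL and 2.92 (adjusted p = 0.078) for TR minus AL per the authors' deposited tables. The positive TR minus AL median of the 125 called genes thus rests on values that did not pass the threshold. Among the 29 measured hepatocyte markers, called or not, 1 was called higher for TR minus AL.

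Skeletal muscle genes stood on the other side of the comparison. Of 46 genes of the muscle list 38 were measured, and 5 rose in CR against TR: Myh1, a myosin heavy chain of fast fibres, by 6.98 (SE 1.73, adjusted p = 0.017); Mb, myoglobin, by 5.96; Mybpc1, a myosin-binding protein, by 5.84; Actn2, an alpha-actinin of the Z disc, by 4.39; and Tnnt1, the troponin T of slow fibres, by 3.97, per the authors' deposited table. The other 33 were not called, but all 38 had positive log2 fold changes between 1.80 and 6.98 and an unadjusted p under 0.05, which 3.62% of all genes had. The median of the list was 4.05 with a median SE of 1.56. The implied summed level of the 38 genes was about 10733 CPM in CR iWAT and 748 CPM in TR iWAT. Myh2, Myh7, Myh8, Myl2, Myl3, Tnni1, Myoz2 and Sln of the list are not listed in the table.

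Fast-fibre genes were among the most abundant of the list. Acta1 (chromosome 8 from 123891769 to 123894751, GRCm38) had a log2 fold change of 3.80 (SE 1.46, adjusted p = 0.43) per the authors' deposited table, with implied levels of about 833 CPM in CR and 59.8 CPM in TR. Myh4, the myosin of the fastest fibres, had 4.04 at a mean of 876 CPM, and Atp2a1, the calcium pump of fast fibres, had 3.90 at 672 CPM per the authors' deposited table. Neither was called, and their SEs were 1.96 and 1.79. Tnnc1, the troponin C of slow fibres and heart, had the smallest value of the list, 1.80 (SE 0.75, adjusted p = 0.67) per the authors' deposited table. Myh4, Atp2a1 and Tnnc1 were named after their values were seen.

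The promoter windows of Mybpc1 and Acta1 are shown as those of a called and an abundant muscle gene. Capitals mark the letters CAGCTG, an E-box that reads the same on both strands and is bound by myogenic factors. The windows lie at chr10:88605103-88605402 and chr8:123894726-123895025, both on the minus strand (RefSeq, GRCm38.p6).
Mybpc1: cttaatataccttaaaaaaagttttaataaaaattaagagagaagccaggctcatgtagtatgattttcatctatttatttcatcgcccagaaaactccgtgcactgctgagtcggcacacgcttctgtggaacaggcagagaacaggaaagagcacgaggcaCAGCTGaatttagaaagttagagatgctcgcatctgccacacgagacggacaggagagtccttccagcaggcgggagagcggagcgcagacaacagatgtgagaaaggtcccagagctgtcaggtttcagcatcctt
Acta1: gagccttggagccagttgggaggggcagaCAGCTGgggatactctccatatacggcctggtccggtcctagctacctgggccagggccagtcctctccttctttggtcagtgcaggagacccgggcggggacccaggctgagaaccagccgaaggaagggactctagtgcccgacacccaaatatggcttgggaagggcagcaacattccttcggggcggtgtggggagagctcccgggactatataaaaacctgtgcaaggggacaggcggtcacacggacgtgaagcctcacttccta
The letters began 87 bases before the start in Mybpc1 and 221 bases before it in Acta1. They were present in 18 of 31 windows of the muscle list (58.1%), which came from 28 of its 38 measured genes. They were also present in 14 of 113 windows of the called liver-enriched genes (12.4%) and in 5355 of all 32851 windows (16.3%). As above, the match describes the window only.

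Relative to ad libitum iWAT, 16 muscle genes fell in TR, and the share called in CR was near that over all genes. The median of the list was 1.14 for CR minus AL, with 2 of 38 called higher against 3.52% of all genes. For TR minus AL it was -2.81, with 16 of 38 called lower and 1 called higher, where 5.24% and 4.76% of all genes were called lower and higher. Tnnc1 was the member called higher on both diets, by 5.13 for CR and 3.33 for TR over AL, and Tnnt1 was higher by 3.91 for CR minus AL alone, with -0.02 for TR minus AL, per the authors' deposited tables. Myh1 had 0.93 (adjusted p = 0.76) for CR minus AL and -6.06 (adjusted p = 6.3e-05) for TR minus AL per the authors' deposited tables.

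Of the 5 called genes outside both classes, 3 are expressed in striated muscle. Fabp3, a fatty acid-binding protein of heart and muscle that also stood in the list of thermogenic genes, had a log2 fold change of 4.26 (SE 1.06, adjusted p = 0.017) per the authors' deposited table. Cavin4, a caveolar protein of muscle, and Nexn, an actin-binding protein of the Z disc, had 3.94 (adjusted p = 0.026) and 3.07 (adjusted p = 0.049) per the authors' deposited table. Their TR minus AL values were -3.48, -3.37 and -3.49, all called, and their CR minus AL values were 0.77, 0.57 and -0.42, none called, per the authors' deposited tables. Myh1 and Mb likewise were called in TR minus AL and not in CR minus AL.

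The gene with the smallest p-value was Gm45837, a predicted protein-coding gene on the plus strand of chromosome 7 from 101410886 to 101512819 (GRCm38). It had a log2 fold change of 10.41 (adjusted p = 0.0028) at a mean of 3.07 CPM per the authors' deposited table, a size that means one group was fitted near 0. It is not listed for TR minus AL, and for CR minus AL it had 2.18 (adjusted p = 0.56) per the authors' deposited table. Its annotated span overlaps that of Pde2a, a phosphodiesterase gene on the same strand, from 101421691 to 101512819. Pde2a had -0.12 at a mean of 136 CPM per the authors' deposited table, and how reads were shared between the 2 genes was not tested. Mmd2, a gene of low level in iWAT (0.72 CPM), was the only called gene lower in CR outside the liver-enriched class, with -1.88 (SE 0.52, adjusted p = 0.039) per the authors' deposited table. Its level in liver was 2.80 log2 units higher than in iWAT. Gm45837 and Mmd2 were named after their values were seen.

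With hepatocyte and muscle genes set apart, the fat-cell gene lists held 560 genes, of which 1 was called, the Fabp3 described above. Over these 560 genes the median log2 fold change was -0.11 with a median SE of 0.30, and 13 had an unadjusted p under 0.05 (2.32%, where 3.62% of all genes did). The approximate 95% interval lay within 1 log2 unit of 0 for 437 of them (78.0%), so for most members a difference of 2-fold was outside the interval. The part of hepatocyte RNA in the values of these genes was not tested. A p above the threshold does not show that the diets acted alike, and smaller differences were not detectable with these errors.

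**Figure D3:**
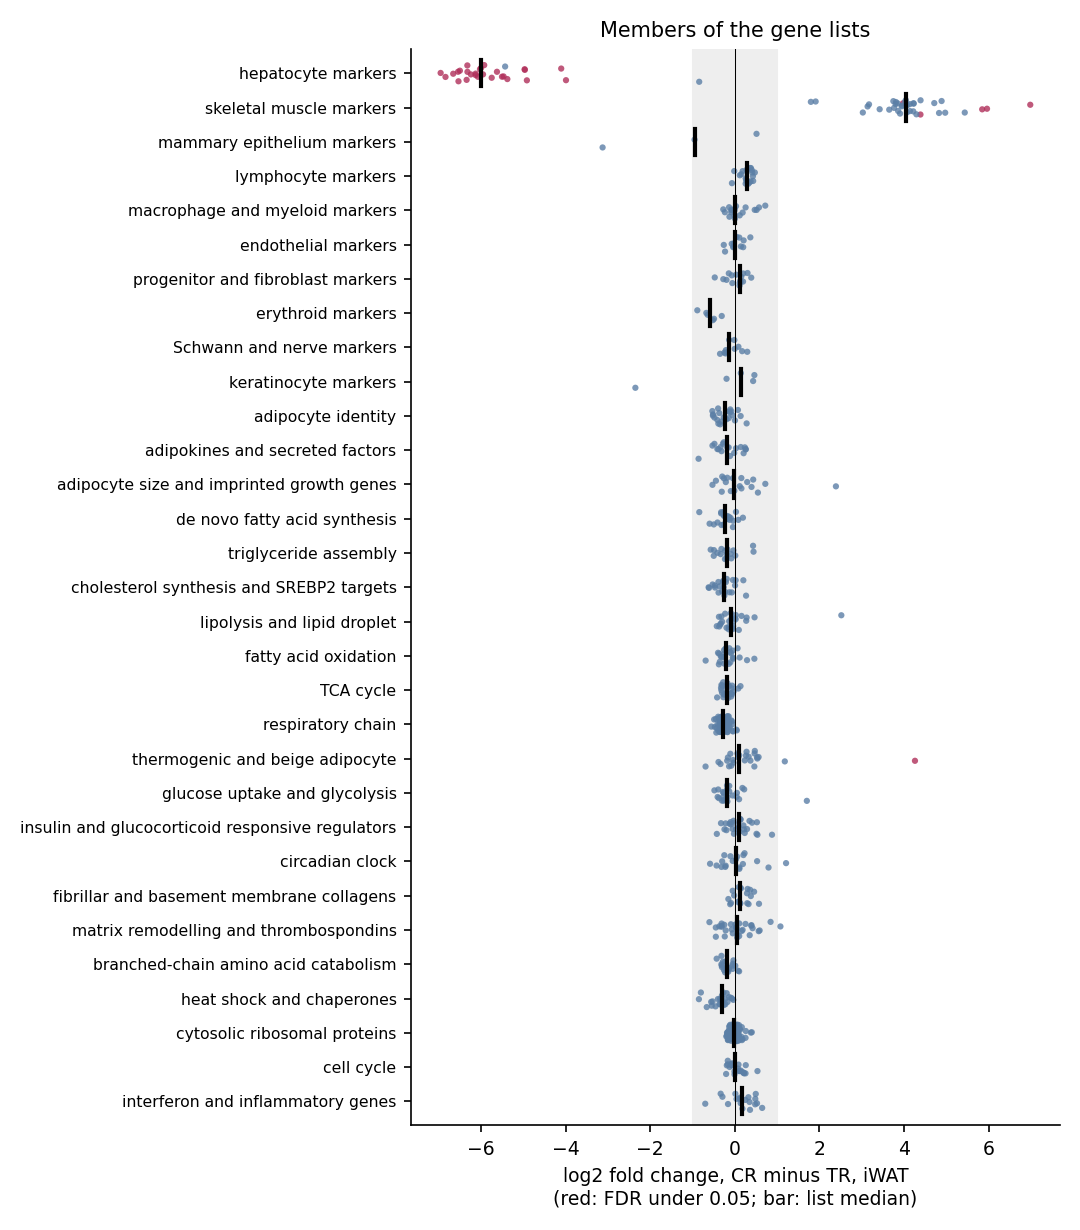
Each point is the deposited log2 fold change (CR minus TR in iWAT) of 1 measured member of a gene list, and the bar is the list's median. Hepatocyte markers centre on -5.997 and muscle genes on 4.05, while the lists of fat-cell functions lie mostly in the grey band of 1 log2 unit around 0, with single members such as Fabp3 and H19 outside it.

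Lipogenic genes, which both diets had raised over AL, were not called between the diets. Among 22 genes of de novo fatty acid synthesis 0 were called between CR and TR by edgeR and 1 had an unadjusted p under 0.05, with a median of -0.22 and 19 of 22 intervals within 1 log2 unit of 0. For CR minus AL and for TR minus AL, 16 of the 22 were called higher, with medians of 1.93 and 2.04. Over all genes 3.52% were called higher for CR minus AL and 4.76% for TR minus AL. Fasn, the fatty acid synthase, had -0.18 (SE 0.36), Acaca, which makes malonyl-CoA, had -0.26 (SE 0.31) and the elongase Elovl6 had -0.32 (SE 0.31) per the authors' deposited table. The desaturase Fads2 had the smallest p of the list, -0.84 with adjusted p = 0.84 per the authors' deposited table. The citrate carrier Slc25a1 had -0.60 (SE 0.33), and the lipogenic transcription factors Srebf1 and Mlxipl had -0.14 and 0.03 per the authors' deposited table. Pklr and Tkfc of the list belonged to the liver-enriched class, and Pklr, the liver pyruvate kinase, fell by 6.51 on the log2 scale with the hepatocyte genes per the authors' deposited table.

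Genes of triglyceride assembly and of sterol synthesis were not called either. Of 17 assembly genes 0 were called by edgeR and 0 had an unadjusted p under 0.05, with a median of -0.19. Dgat1, which makes the last step to triglyceride, had -0.57 (SE 0.33), and Pck1, the entry to glyceroneogenesis, had 0.43 (SE 0.35) per the authors' deposited table. Of 24 cholesterol synthesis and SREBP2 target genes 0 were called and 1 had an unadjusted p under 0.05, with a median of -0.25. The sterol isomerase Ebp had the smallest p, with -0.62 (SE 0.27, adjusted p = 0.80) per the authors' deposited table. Over AL, 17 of the 24 sterol genes were called higher in CR and 19 in TR, where 3.52% and 4.76% of all genes were.

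Lipolysis and mitochondrial genes were likewise not called by edgeR, and 0 of them had an unadjusted p under 0.05. The 27 lipolysis and lipid droplet genes had a median of -0.08. Pnpla2, the first triglyceride lipase of lipolysis, had -0.35 (SE 0.33), Plin1, the main droplet coat of fat cells, had -0.13 (SE 0.33) and Lpl, which takes up circulating lipid, had 0.00 (SE 0.35) per the authors' deposited table. Respiratory chain subunits had a median of -0.28, and 73 of 75 were negative, with 70 of 75 intervals within 1 log2 unit of 0. In the TCA cycle 23 of 25 genes were negative with a median of -0.17, and in fatty acid oxidation 21 of 25 with a median of -0.22. Over all genes 7062 of 14699 were negative. Subunits of one pathway vary together between mice, so these counts are not independent observations. Over AL, 3.52% of all genes were called higher in CR and 4.76% in TR. Of the respiratory genes 53 of 75 were called higher in CR and 63 of 75 in TR, with medians of 0.94 and 1.13. Of the TCA genes 20 of 25 were called higher on each diet. The values in CR thus lay slightly under those in TR in both lists, by amounts that passed the threshold for no single gene. This lean was not particular to mitochondrial genes. Negative values were held by 18 of 22 adipocyte identity genes (median -0.23), 19 of 22 fatty acid synthesis genes and 20 of 24 sterol genes. In branched-chain amino acid catabolism 17 of 20 were negative. Other lists leaned the other way, with 15 of 20 collagens and 17 of 27 thermogenic genes positive.

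Thermogenic genes were also not called, apart from Fabp3. Ucp1 (chromosome 8 from 83290352 to 83298452, GRCm38) had a log2 fold change of 1.18 (SE 0.45, unadjusted p = 0.0094 and adjusted p = 0.44, from the authors' edgeR model) per the authors' deposited table. Its approximate interval ran between 0.29 and 2.07, and its implied levels were about 22.9 CPM in CR and 10.1 CPM in TR. Over AL, Ucp1 was called higher on both diets, by 4.13 in CR and 2.88 in TR, per the authors' deposited tables. Cidea, a droplet protein of beige and brown fat, had -0.05 (SE 0.32) between the diets against 4.08 and 4.05 over AL, and Elovl3, an elongase of brown fat, had 0.08 (SE 0.42) against 4.55 and 4.37 over AL, per the authors' deposited tables. The list of 27 genes had a median of 0.10.

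Fat hormones and markers of fat-cell size were not called between the diets. Lep, which encodes leptin, had -0.11 (SE 0.32) between CR and TR, and -1.002 (adjusted p = 0.16) for CR minus AL beside -0.96 (adjusted p = 0.030) for TR minus AL, per the authors' deposited tables. Adipoq had -0.31 (SE 0.34) and the adipogenic receptor gene Pparg -0.11 (SE 0.25) per the authors' deposited table. Rbp4, a retinol carrier secreted by liver and fat, had the smallest p among adipokines, -0.86 (SE 0.35, adjusted p = 0.58) per the authors' deposited table. Mest, an imprinted gene tied to fat-cell growth, had 0.43 (SE 0.51) between the diets against -3.86 and -4.33 over AL, and Npr3, the natriuretic peptide clearance receptor, had 0.55 (SE 0.36) against -1.61 and -2.20 over AL, per the authors' deposited tables. Pdzk1ip1 and Sfrp5 had -0.44 (SE 0.38) and -0.53 (SE 0.57) between the diets, and over AL Pdzk1ip1 had 5.72 in CR and 6.13 in TR, and Sfrp5 had -3.09 in CR and -2.61 in TR, per the authors' deposited tables. Mest, Npr3, Pdzk1ip1 and Sfrp5 were called over AL on both diets, and the intervals of their 4 differences between CR and TR included 0.

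**Figure D4:**
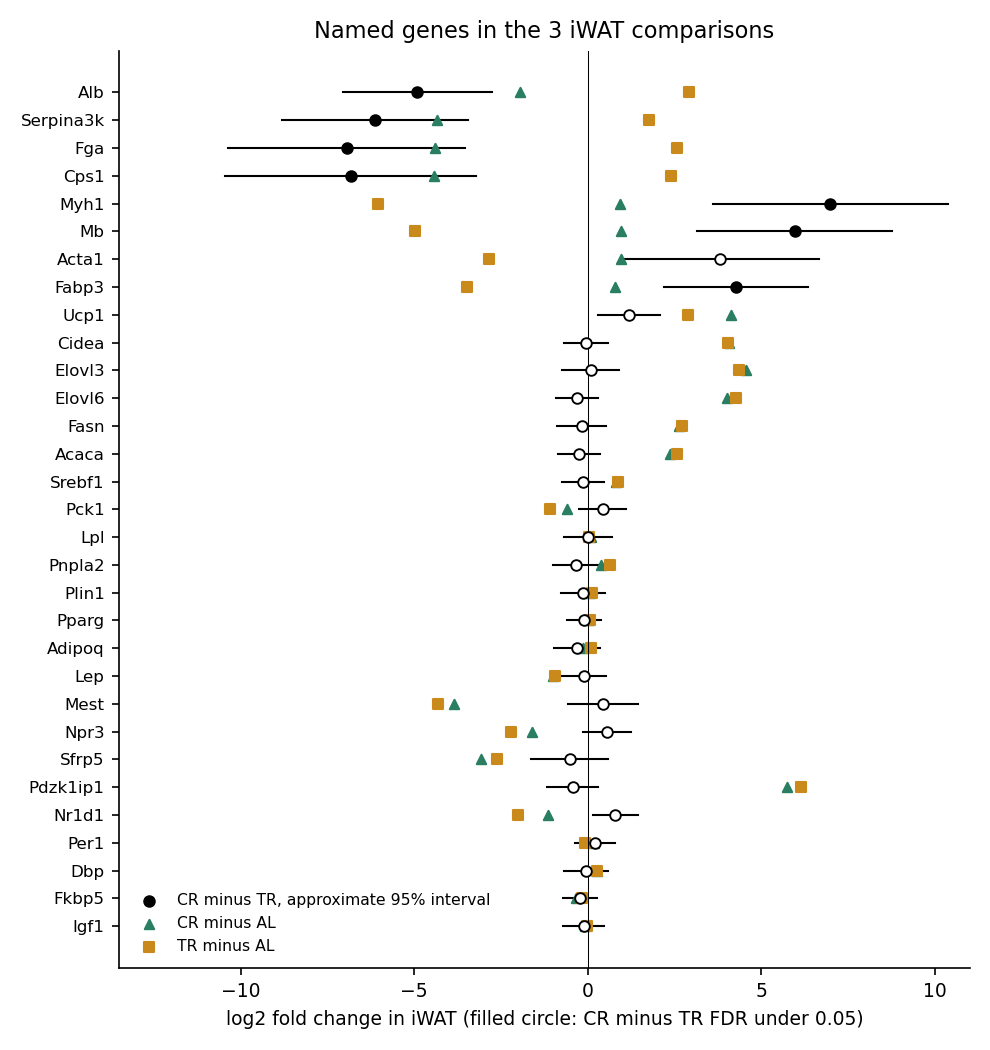
For each gene the circle gives CR minus TR with its approximate 95% interval, the triangle CR minus AL and the square TR minus AL, all as deposited log2 fold changes in iWAT. For Fasn, Elovl6, Cidea and Mest the triangle and square lie together away from 0 and the circle lies near 0, while for Alb and Myh1 they lie on opposite sides of 0.

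Clock and hormone-responsive genes gave no call either. Nr1d1, a repressor of the clock, had the smallest p of the clock list, 0.80 (SE 0.33, adjusted p = 0.65), with -1.16 for CR and -2.01 for TR over AL, both called, per the authors' deposited tables. Of the 19 clock genes, 2 had an unadjusted p under 0.05, the other being Npas2, a partner of BMAL1, with 1.21 (SE 0.58) at a mean of 2.32 CPM per the authors' deposited table. The repressor Nfil3 had -0.59 (SE 0.30), and Per1 and the output factor Dbp had 0.20 (SE 0.29) and -0.05 (SE 0.33) per the authors' deposited table. The list had a median of 0.03. Fkbp5, a glucocorticoid target, and Igf1 had -0.22 (SE 0.25) and -0.12 (SE 0.30) per the authors' deposited table. Of 28 insulin and glucocorticoid responsive genes 0 were called by edgeR, and 1, higher in CR, had an unadjusted p under 0.05. Their median was 0.10, and Zbtb16 had the highest value, 0.88, per the authors' deposited table.

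Matrix, chaperone and ribosomal lists held no called gene. Of 20 collagens and 32 matrix genes 0 were called by edgeR and 0 had an unadjusted p under 0.05, with medians of 0.13 and 0.04. All 24 heat shock and chaperone genes were negative with a median of -0.31, and none was called, with 2 at an unadjusted p under 0.05. Dnajb1, a co-chaperone, had -0.66 (SE 0.30, adjusted p = 0.94) per the authors' deposited table. The 78 cytosolic ribosomal proteins had a median of -0.01, and all 78 intervals lay within 1 log2 unit of 0. H19, an imprinted long RNA, had 2.39 (SE 0.87, adjusted p = 0.33), and Pfkm, the muscle form of phosphofructokinase, had 1.70 (SE 0.67, adjusted p = 0.49) per the authors' deposited table. Both genes are well expressed in skeletal muscle, whose 38 measured genes were all positive here. The part of muscle RNA in these 2 values was not tested.

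Markers of other cell types of the depot were not called between the diets. None of 20 lymphocyte, 19 macrophage, 12 endothelial, 16 progenitor, 11 Schwann cell and 6 erythroid markers was called by edgeR, and 1 of them, the erythroid haem enzyme gene Alas2, had an unadjusted p under 0.05. Their medians were 0.30, 0.00, 0.01, 0.11, -0.13 and -0.58, and the lymphocyte genes had a median SE of 0.70, so that 2-fold differences in these genes were not detectable. Mammary and keratinocyte markers were mostly not listed, with 3 of 18 and 5 of 12 measured. Of these, Krt18, Prlr and Perp, with -3.12, -0.95 and -2.35 per the authors' deposited table, belonged to the liver-enriched class.

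At the level of transcripts 132 of 31936 were called (0.413%), of which 32 were higher in CR (0.10%) and 100 were lower in CR (0.313%), and 2.76% had an unadjusted p under 0.05. Of the called transcripts 71 came from liver-enriched genes, all lower in CR, with a median log2 fold change of -6.04. They belonged to 69 genes, 67 of which were also called as genes. The other 2 were Pemt-202, with -7.58 against -1.47 for the gene, and Slc38a4-202, with -7.16 against -2.00 for the gene, per the authors' deposited tables of both kinds. Forms of a called gene could also lie far from it: Serpinc1-205 and Serpinc1-204 had -13.15 and -11.44, against -3.22 for the gene, per the authors' deposited tables of both kinds. Both were fitted near 0 in CR, with implied levels of about 0.0044 and 0.0045 CPM, so these sizes are no measured folds. In the muscle list 70 of 71 transcripts were positive with a median of 3.98, but only Pygm-202, of the muscle glycogen phosphorylase gene, was called. This minor form had a mean of 0.67 CPM, or 0.33% of its gene's level, and an implied level of about 0.012 CPM in TR. The Pygm gene itself was not called. The most abundant transcripts of the called genes Myh1, Mb, Mybpc1 and Actn2 had 6.35, 6.41, 6.76 and 6.16 and were not called, with adjusted p between 0.23 and 0.99, per the authors' deposited transcript table. The median SE of a transcript was 0.50, against 0.32 for a gene.

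The remaining 60 called transcripts, 31 higher and 29 lower in CR, mostly belonged to genes that were not called. For 57 of them the gene was not called, and the genes' log2 fold changes ran between -0.70 and 0.49 with a median of 0.06. The size of the transcript's own difference was 6 log2 units or more in 56 of the 60, and 0.564% of all transcripts had such a size. Most of these 56 were minor forms: their mean level was 3.37% of their gene's at the median, and 48 of them had a mean under 2 CPM. A fitted log2 fold change of such a size means that one group was fitted near 0, so it is no measured fold. Of the 29 higher in CR, 29 are listed in the CR minus AL table and 11 in the TR minus AL table, and of the 27 lower in CR, 12 are listed for CR minus AL and 27 for TR minus AL.

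**Figure D5:**
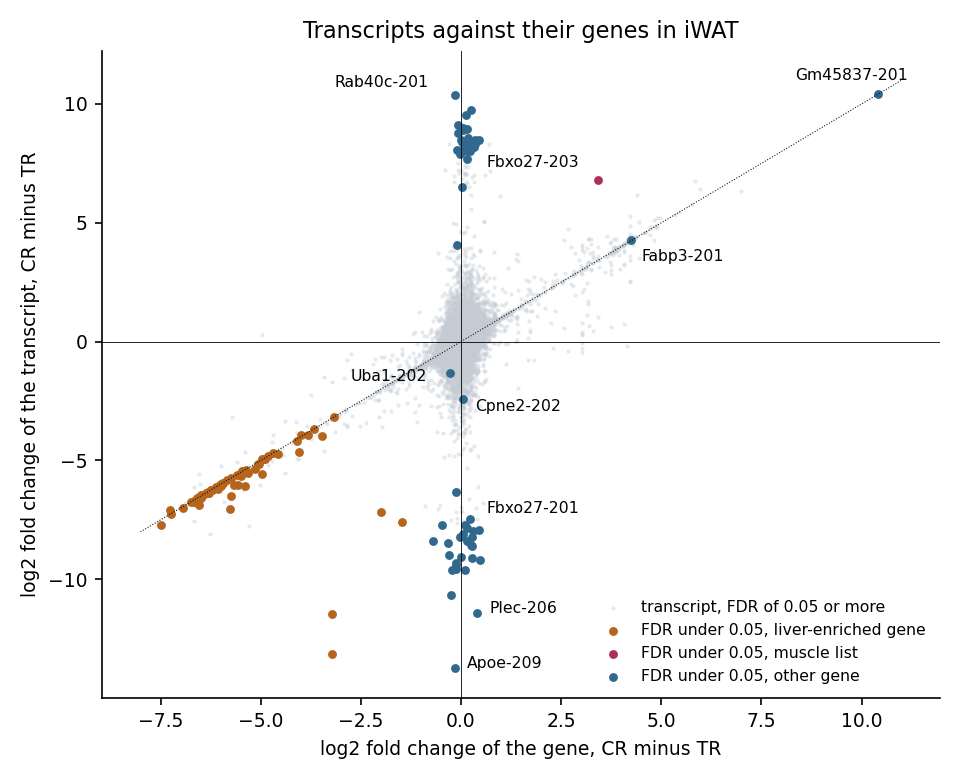
The deposited log2 fold change (CR minus TR) of each transcript is plotted against that of its gene, with called transcripts in colour. Most liver-enriched transcripts (brown) lie near the dotted line of equal change, and 56 called transcripts of other genes lie 6 log2 units or more from 0, most of them above or below genes that had almost no difference.

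Apoe-209 had the smallest p of all transcripts. Apoe encodes an apolipoprotein made by macrophages, fat cells and hepatocytes. The transcript had a log2 fold change of -13.75 (adjusted p = 4.9e-06) at a mean of 30.5 CPM, or 3.04% of its gene, which had -0.16, per the authors' deposited tables of both kinds. It had -13.83 for CR minus AL and 0.10 for TR minus AL per the authors' deposited tables, so CR stood apart from both other diets. The main form, Apoe-206, with a mean of 549 CPM, had -0.07 (SE 0.33) per the authors' deposited table. Mgst1-207, of a microsomal glutathione transferase gene, showed the same arrangement, with -7.70 (adjusted p = 0.0041), -7.79 for CR minus AL and -0.11 for TR minus AL, at 2.07% of its gene per the authors' deposited tables.

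Rab40c-201, of a Rab family gene, also stood apart in CR, but as the higher form, with 10.36 (adjusted p = 3.4e-05) and 10.48 for CR minus AL, and without a listing for TR minus AL, per the authors' deposited tables. Other forms stood apart in TR. Col6a3-201, a minor form of a collagen VI gene at 0.33% of its gene's level, had 8.19 (adjusted p = 0.00084), with -0.31 for CR minus AL and -8.57 for TR minus AL, per the authors' deposited tables. The main form Col6a3-202 had 0.13 (SE 0.31) per the authors' deposited table. Plec-206, of the cytoskeletal linker plectin, had -11.41 (adjusted p = 0.0041) and 11.47 for TR minus AL per the authors' deposited tables. Of the fat-cell lists, the called transcripts were Agpat3-205, Col6a3-201, Fabp3-201 and Lpin3-201, out of 1624 transcripts of 559 genes.

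Fbxo27, an F-box gene, was the only gene with transcripts called in both directions. Fbxo27-203 had 8.22 (adjusted p = 4.9e-06) and Fbxo27-201 had -7.46 (adjusted p = 0.013) per the authors' deposited transcript table, at mean levels of 0.73 and 0.45 CPM. The gene had 0.22 per the authors' deposited table of genes. Fam220a-204 and Fam220a-208 span the same positions and have the same fold change and level, 9.12 at a mean of 1.31 CPM per the authors' deposited table. They are best read as 1 observation, though the counts of called transcripts above hold both.

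Only 4 of the 60 transcripts had a difference under 6 log2 units: Uba1-202, Cpne2-202, Gm28042-202 and Fabp3-201. Uba1 (chromosome X, plus strand, to 20683179, GRCm38) encodes the main E1 enzyme that activates ubiquitin. Uba1-202 was the only one of the 4 above 10 CPM, with a mean of 105 CPM or 32.0% of its gene's level. It had a log2 fold change of -1.30 (SE 0.29, adjusted p = 0.0063) per the authors' deposited table, with implied levels of about 60.7 CPM in CR and 150 CPM in TR. The other main form, Uba1-201, with a mean of 208 CPM, had 0.24 (SE 0.32) and the gene, which was not called, had -0.26 per the authors' deposited tables of both kinds. For CR minus AL, Uba1-202 had -0.02 and for TR minus AL 1.25 (adjusted p = 0.017) per the authors' deposited tables, so TR stood apart from both other diets.

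The 2 forms of Uba1 start 4572 bases apart, at 20658326 for Uba1-202 and 20662898 for Uba1-201, and end together. Their RefSeq promoter windows (GRCm38.p6, plus strand) lie at chrX:20658052-20658351 and chrX:20662646-20662945. They are shown because Uba1-202 was called and Uba1-201, with another start, was not. A difference between the forms was not tested. Capitals mark the bases of the window from the annotated start of the transcript onward.
Uba1-202: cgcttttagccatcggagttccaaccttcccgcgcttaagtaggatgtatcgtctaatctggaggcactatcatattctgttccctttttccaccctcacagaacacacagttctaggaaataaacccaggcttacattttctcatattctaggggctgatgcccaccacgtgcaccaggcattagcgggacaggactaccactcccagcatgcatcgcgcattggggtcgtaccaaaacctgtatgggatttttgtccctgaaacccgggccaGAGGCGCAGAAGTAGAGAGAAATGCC
Uba1-201: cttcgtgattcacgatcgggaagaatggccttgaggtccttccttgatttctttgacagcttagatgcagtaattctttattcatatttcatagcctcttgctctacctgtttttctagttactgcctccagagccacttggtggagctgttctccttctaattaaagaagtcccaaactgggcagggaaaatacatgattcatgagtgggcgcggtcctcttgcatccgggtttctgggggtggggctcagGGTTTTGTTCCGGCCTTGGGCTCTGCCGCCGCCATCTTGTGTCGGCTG
The annotated start lies 24 bases after the RefSeq start for Uba1-202 and 2 bases after it for Uba1-201. Cpne2-202, of a copine gene, had -2.40 (SE 0.51, adjusted p = 0.0037) at a mean of 4.10 CPM, while Cpne2-201, at 16.0 CPM, had 0.54 (SE 0.35), per the authors' deposited table. Over AL, Cpne2-202 had -2.73 in CR, which was called, and -0.37 in TR, which was not, per the authors' deposited tables. RSEM assigns reads shared by several forms by estimation, and the values of forms of one gene therefore depend on each other. Uba1, Cpne2, Col6a3, Mgst1, Pemt and Slc38a4 were named after their values were seen.

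The difference between CR and TR was set against the same difference in liver. Of 11878 genes in both tables, 147 (1.24%) had an iWAT log2 fold change that differed from the liver's at adjusted p under 0.05, by an approximate test on the deposited values. In the labels CR iWAT and CR liver share 6 library numbers, and TR iWAT and TR liver share 5, while the test took the tissues as independent. Of the 38 measured muscle genes, 32 are not listed for liver and could not enter this test. Of the 147 genes, 136 were liver-enriched genes, all lower in iWAT, and 1 was of the muscle list. The 136 genes hold the hepatocyte difference described above. Elovl3 was among the other 10: it rose by 2.48 in CR liver against TR liver and had 0.08 in iWAT, a difference of -2.40 (adjusted p = 0.017), per the authors' deposited tables. Tuba8, a tubulin gene, fell by 1.498 in CR liver against TR liver and had 0.20 in iWAT, a difference of 1.70 (adjusted p = 0.021), per the authors' deposited tables. Tuba8 was named after its values were seen. For these 2 genes the diets differed in liver and were not told apart in fat.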

How the data were processed

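Total RNA of flash-frozen tissue was extracted with Trizol and made into Illumina TruSeq libraries from 1 ug of RNA, per the labels' protocols. The submitters' processing notes name bcl2fastq 2.20, STAR 2.5.3a, RSEM and the build GRCm38.p5, with no settings. The authors compared groups of 6 libraries with an edgeR likelihood-ratio model, per the file headers. The deposited values are log2 fold changes, log2 mean CPM, a likelihood-ratio score, and p-values with an FDR, for genes and for transcripts. Count models had been planned, but the files used here hold comparisons, so the deposited FDR served as the test. Depth per library is unknown.

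The deposited tables were joined by identifier with Python 3.11.15, pandas 2.3.3, NumPy 2.4.6 and SciPy 1.17.1. The deposited p-values were checked against the chi-square tail of the deposited score. Approximate SEs, 95% intervals (1.96 SE) and levels implied per group (mean and fold change, taking equal weights) were computed. For the difference between iWAT and liver, the SEs of both tissues were combined as independent and p-values adjusted by Benjamini-Hochberg. Positions are from GENCODE M21 (GRCm38), in which 14691 of 14699 genes and 31927 of 31936 transcripts matched. Calculations were tested on simulated data.

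Each library of a diet and tissue has its own number in the labels, and liver and iWAT libraries of a diet share most numbers. Across diets a number can recur, as a CR and a TR liver library carry the same one. Whether a number marks an animal is not stated, so p-values may measure technical spread. For the test between tissues, correlations of 0.3 and -0.3 were tried. Members and gene lists were chosen with earlier results of these data known. Genes were named by extremes: up to 8 per direction among liver-enriched and muscle genes, 12 among others with 8 more by FDR, 4 per list by p, and 26 fixed names, at a log2 mean CPM of at least 1 and without predicted genes. Transcripts named were the 8 highest and 8 lowest outside those classes, any gene with calls both ways, and transcripts whose call differed from their gene's. Alternatives were other FDR thresholds, a level filter, other gaps, the classes left out, p-values adjusted again, the most abundant transcript, and differences rebuilt through AL.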

Additional observations from a re-analysis of the deposited data

Results flagged for a closer look

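The difference between CR and TR was not the same in iWAT and liver for 147 genes, by the approximate test described above. Most were liver-enriched genes, 136 in number. Outside the liver-enriched and muscle classes, 10 genes had such a difference (iWAT minus liver, log2). Elovl3 had -2.40, Mmd2 had -2.37 and BC049987 had -2.25, the last with -0.56 in iWAT and 1.70 in liver. Ttc39c had -1.65, with -0.93 in iWAT and 0.71 in liver, and Cela1 had -1.47, with -0.45 in iWAT and 1.02 in liver. Tuba8 had 1.70, and Gadd45b, a stress-responsive gene, had 1.74, with 0.35 in iWAT and -1.39 in liver. Nexn had 3.17, Asb2 had 3.29 and Ankrd23 had 4.08. These 3 are expressed in striated muscle, and the muscle list had a median of 4.05 in iWAT; the part of muscle RNA in their values was not tested.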

How the results depend on the processing

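At an FDR under 0.01 the calls between CR and TR were 1 gene higher and 0 lower, against 9 and 126, and 16 transcripts higher and 35 lower, against 32 and 100; at 0.10 there were 15 genes higher. No gene had transcripts called both ways at 0.01 (0), nor among forms at or above 1 on the log2 CPM scale (0), a filter that left 3 transcripts higher. With liver-enriched and muscle genes left out, 1 gene was higher and 0 lower, and 21 transcripts were higher and 26 lower, an alternative for transcripts chosen after seeing the data. A gap of 6 log2 units kept 22 liver-enriched genes among the calls in place of 125, by its own stricter limit. The medians of the 31 lists moved by at most 0.081 log2 units when rebuilt through AL, where 4 changed sign (macrophage, fat-cell size, ribosomal and cell cycle, each within 0.011 of 0) and 9 shrank by over 1.5 times; centred on all genes they moved by 0.013, and 1, the endothelial list, changed sign. Of 160 named genes read from their most abundant transcript, 138 kept their call or value, 15 kept the direction but missed the threshold, and 7 moved; 4 of the 160, 0 of them called as genes, had another sign than the gene. Serpina3m had -0.50 there, against -2.74 for the gene. The difference between tissues was called for 180 or 121 genes with an assumed correlation of 0.3 or -0.3. No paired analysis was possible because the tables hold no values per library; for the same reason no library could be left out. Depth is unknown, and forms under 2 CPM are the least certain.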
